A study of Mus musculus with 9 samples.

Results

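The respiratory chain genes described here are the protein-coding genes for subunits and assembly factors of complexes I to V and for cytochrome c. They were chosen by gene name (Nduf, Uqcr, Cox4 to Cox8, Atp5, Sdha to Sdhd and Cycs, and the mitochondrial mt-Nd, mt-Co, mt-Cytb and mt-Atp genes), and 104 of the 21434 genes listed in both deposited tables matched. Of these, 91 are encoded in the nucleus and 13 in the mitochondrial genome. The nuclear genes comprise 36 subunits and 9 assembly factors of complex I, 4 subunits of complex II, 8 of complex III, 17 of complex IV, 15 of complex V, the ATP synthase factor Atp5s and Cycs. The mitochondrial genes comprise 7 subunits of complex I, 1 of complex III, 3 of complex IV and 2 of complex V. Ndufa4, named as a complex I gene but now counted as a subunit of complex IV, was placed with complex IV, as was Ndufa4l2, and Atp5sl, which acts in building complex I, was placed with its assembly factors.

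The cells were bone-marrow-derived macrophages of C57BL/6 mice aged 8 weeks, grown from bone marrow with macrophage colony-stimulating factor (M-CSF). There were 3 RNA-seq libraries of cells given lipopolysaccharide (LPS, 500 ng/ml) together with NCT503 (50 µM) for 6 h, 3 of cells given LPS (500 ng/ml) alone for 6 h, and 3 of control cells kept in medium for 6 h. LPS is the bacterial cell wall component that activates macrophages through Toll-like receptor 4, and NCT503 is a small-molecule inhibitor of phosphoglycerate dehydrogenase, the enzyme that diverts glycolytic carbon into serine synthesis. No library of NCT503 without LPS was analysed here, and the labels name no vehicle for the other cells.

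The respiratory chain passes electrons from NADH (complex I) and succinate (complex II) through ubiquinone, complex III and cytochrome c to oxygen at complex IV, and ATP synthase (complex V) uses the proton gradient that complexes I, III and IV build. Complexes I, III, IV and V combine proteins made from both genomes, whereas complex II and cytochrome c are wholly nuclear-encoded. In macrophages the chain is known for its rearrangement on LPS activation, when oxidation of succinate by complex II feeds the production of reactive oxygen species.

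Library totals were 20295862 to 23599685 reads over the genes of both tables. Values per library are normalized reads, which are reads divided by size factors (library scaling factors) set over all 9 libraries, and these factors were 0.924 to 0.981 in LPS with NCT503, 0.733 to 0.868 in LPS and 1.25 to 1.46 in control. Fold changes are differences in mean log2(normalized reads + 1), given with their standard error (SE), and a gene is said to rise or fall where the Benjamini-Hochberg adjusted p of the limma test over all genes was under 0.05. Whether the libraries of 2 groups overlap is given as a description only. Many members were named because their groups do not overlap, and the share of all genes without overlap was not computed. The labels do not say whether libraries of a group come from separate cultures or animals, so each p measures the spread between these libraries alone. All 9 macrophage markers were detected. Summed markers of neutrophils were 237 to 497 normalized reads in LPS with NCT503, 2385 to 5758 in LPS and 3960 to 6810 in control, and 7 of 8 such markers were measured. All 7 fell in LPS with NCT503 against LPS, and against control 6 fell. Summed mast cell and basophil markers (6 of 6 measured) were 313 to 339 in LPS with NCT503, 962 to 1376 in LPS and 747 to 890 in control, and all 6 fell in LPS with NCT503 against LPS. Summed macrophage markers were 217439 to 284229 in LPS with NCT503, 467918 to 544052 in LPS and 282574 to 363848 in control. Summed fibroblast and stroma markers (8 of 8 measured) were 16136 to 41341 in LPS with NCT503, 16233 to 35137 in LPS and 5542 to 25425 in control, with 5 of 8 higher in LPS than in control and 3 of 8 lower in LPS with NCT503 than in LPS. Summed T cell markers (7 of 7 measured) were 3154 to 5176 in LPS with NCT503, 1950 to 2455 in LPS and 3862 to 6475 in control. Single T cell markers did not follow this sum: 1 rose and 3 fell in LPS with NCT503 against LPS, and 2 fell against control. Summed dendritic cell markers (5 of 6 measured, 3 of them under 10 normalized reads in all libraries) were 69.7 to 121 in LPS with NCT503, 55.3 to 86.5 in LPS and 9.62 to 38.9 in control. Of these, 2 rose in LPS against control and none was called in LPS with NCT503 against LPS. The part of these cell types in the results below was not tested. In such bulk libraries, fewer cells of a type and less RNA per cell cannot be told apart.

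The first question was how much of each library the chain took up, which needs no size factor. The 13 mitochondrially encoded genes held 0.614%, 0.476% and 0.624% of reads in LPS with NCT503, 0.504%, 0.531% and 0.466% in LPS, and 0.766%, 0.907% and 0.842% in control. Both LPS groups lay below every control library, and they overlapped each other. The 91 nuclear genes together held 0.446%, 0.572% and 0.472% in LPS with NCT503, 0.521%, 0.615% and 0.574% in LPS, and 0.697%, 0.769% and 0.824% in control. Again both LPS groups lay below all control libraries and overlapped each other. The 95% Wilson intervals of these shares extended at most 0.00383 percentage points to either side and cover counting error only.

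**Figure D1:**
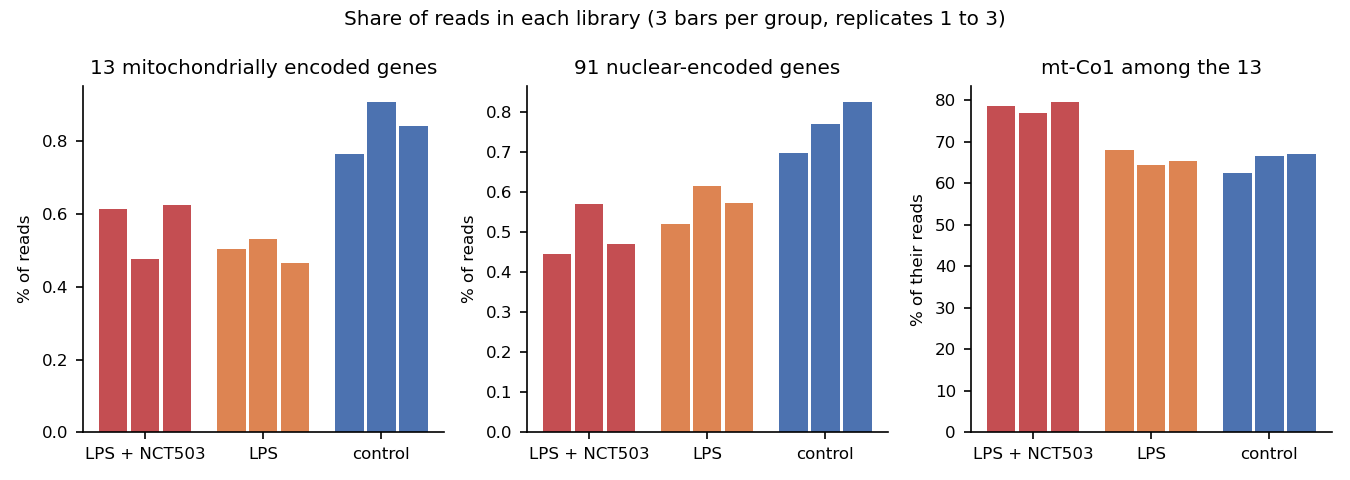
Share of reads in each library, for the 13 mitochondrially encoded genes (left, percent of all reads), the 91 nuclear-encoded genes (middle, percent of all reads) and mt-Co1 within the 13 (right, percent of their reads). Each bar is 1 library, and mt-Co1 took 76.9% to 79.4% of the mitochondrial reads in LPS with NCT503, above all LPS and control libraries.

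One gene dominated the mitochondrial reads. mt-Co1, the catalytic subunit of complex IV, held 78.5%, 76.9% and 79.4% of them in LPS with NCT503, against 68.0%, 64.4% and 65.4% in LPS and 62.5%, 66.6% and 66.9% in control. The share was higher in every LPS with NCT503 library than in any other, while LPS and control overlapped. Without mt-Co1, the other 12 genes held 0.110% to 0.132% of reads in LPS with NCT503, 0.161% to 0.189% in LPS and 0.279% to 0.303% in control, 3 ranges with no overlap. Per read of the nuclear members, these 12 genes gave 0.192 to 0.296 reads in LPS with NCT503, 0.280 to 0.310 in LPS and 0.338 to 0.412 in control.

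Mitochondrial transcripts have near-identical copies in the nuclear genome, and these touch the levels. Copies were searched among annotated transcripts of GENCODE M21 only, so a copy outside annotated genes would be missed. By this search, 9 of the 13 mitochondrial genes match a gene elsewhere at 95% identity or more. A match had to span at least 100 bases and 20% of the transcript in 1 aligned stretch. For mt-Nd3, mt-Nd4l, mt-Co1, mt-Co2, mt-Co3 and mt-Atp6 such copies cover 99.0% to 100% of the transcript, and for mt-Nd4, mt-Nd5 and mt-Nd2 they cover 63.6%, 52.3% and 49.1%. The 4 genes with no such copy are mt-Nd1, mt-Nd6, mt-Cytb and mt-Atp8. Of the nuclear members, 21 have such copies too. Among those called below, copies cover 76.7% of the Atp5o transcript, 72.2% of Atp5l, 62.8% of Uqcrb and 45.1% of Cox5b. For Ndufb4, Ndufs6, Ndufa12, Cox7c, Cox6c and Cycs they cover 40.2%, 37.9%, 36.2%, 32.9%, 31.3% and 30.3%. The part of these copies in the calls was not tested. How close a copy can be is seen at the start of mt-Nd3 (chrM:9459-9806, plus strand, mm10) and of its copy Gm28438 on chromosome 1 (24612775 to 24613119, minus strand), shown 5′ to 3′ from the first base of each GENCODE M21 transcript, with the only base that differs in 345 compared in capitals (T3C, counted from the first base).

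mt-Nd3: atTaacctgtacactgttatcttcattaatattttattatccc
Gm28438: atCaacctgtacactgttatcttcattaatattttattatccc

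Levels per kilobase of the deposited gene length were uneven along a genome that is transcribed as long precursors. In LPS with NCT503, LPS and control, mt-Co1 had 64948 ± 10732, 56819.7 ± 5736 and 58553 ± 10631 normalized reads per kb (mean ± SD, n = 3 each). mt-Cytb, which has no annotated copy, had 4109.7 ± 289.6, 9556 ± 1705 and 10294 ± 734 normalized reads per kb. mt-Co3, covered by a copy over nearly its whole length, had 244 ± 64.9, 424 ± 49.5 and 461 ± 71.1. The 5 genes covered almost whole other than mt-Co1 had group means of at most 1002 normalized reads per kb, whereas mt-Nd1, mt-Nd2, mt-Nd4, mt-Nd5, mt-Nd6 and mt-Cytb had at least 2507. mt-Atp8, with no annotated copy but only 5 to 23 reads in any library, was at most 87.9 per kb. It lies between mt-Co2 and mt-Atp6, which both have copies, so a copy that is not annotated may have been missed. How the authors treated reads that fit several places is not given in the sources used here, and the part of the copies in these levels was not tested.

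LPS was first compared with control. Of the 104 members, 12 rose and 9 fell, all of them nuclear, against 20.5% of all genes tested that rose and 21.4% that fell (41.8% in either direction). As fitted, the shares of members, 11.5% and 8.65%, were below these. No mitochondrial gene passed the test in limma, edgeR or DESeq2, and their median was −0.11, but with CPM scaling 12 of the 13 fell and with quantile normalization 7. The median log2 fold change of the nuclear members was 0.15, against −0.05 over all genes tested, and turned negative under quantile normalization (−0.23) and under scaling to library totals (CPM, −0.55). CPM scaling moved the median of all genes by −0.63, and then 1 member rose and 73 fell (70.2%, against 42.8% of all genes lower), while quantile normalization gave 4 higher and 29 lower (27.9%, against 23.0% of all genes lower). The number that rose was 22 without LPS 1 (21.2%, against 20.6% of all genes) and 7 without LPS 2 (6.73%, against 18.6%). It was 5 without LPS 3 (4.81%, against 16.8%) and 5 without control 2 (4.81%, against 16.4%). With trimmed mean of M-values (TMM) scaling the nuclear median was 0.05.

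**Figure D2:**
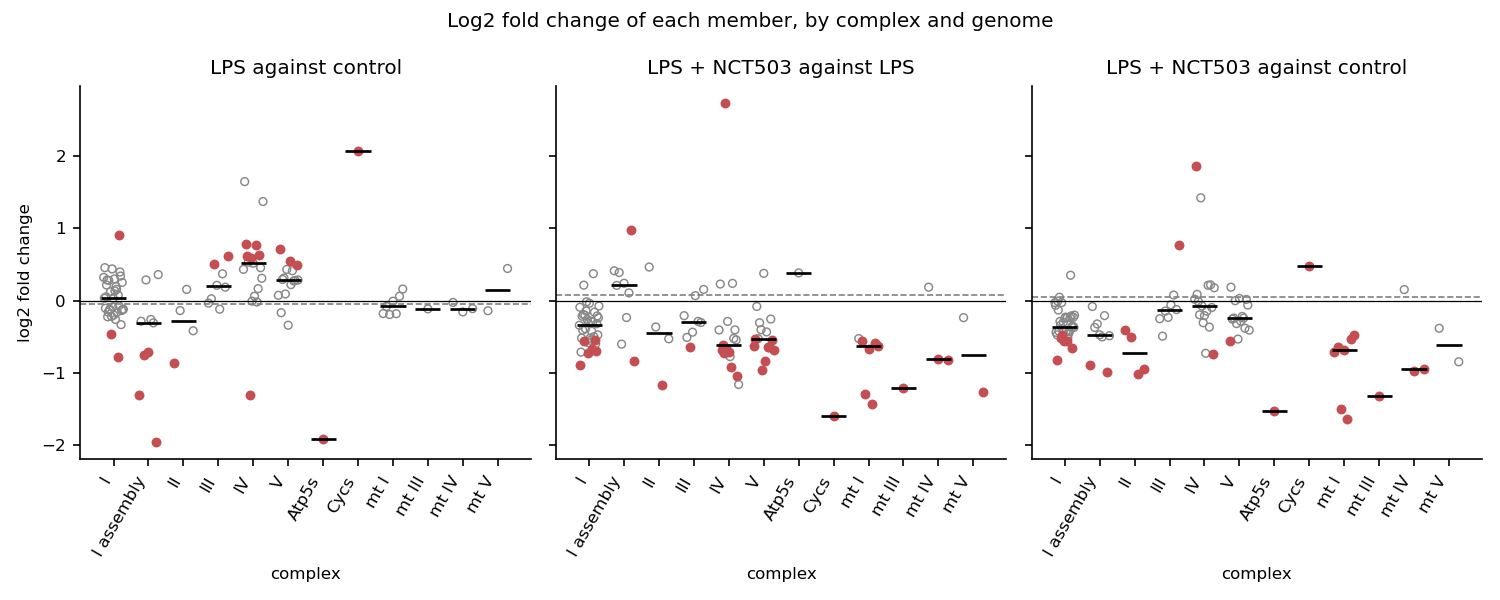
Log2 fold change of each of the 104 members in the 3 comparisons, by complex and genome (mt, mitochondrially encoded). Filled points passed the limma test at an adjusted p under 0.05, open points did not, black bars are medians and the dashed line is the median of all genes tested. Nuclear complex IV has a median of 0.52 for LPS against control, which falls to 0.06 with quantile normalization and −0.19 with CPM scaling, and −0.62 for LPS with NCT503 against LPS, and Cycs is the highest point in the first panel.

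Cycs moved most. It encodes the somatic cytochrome c, which carries electrons from complex III to complex IV and triggers apoptosis when released. The gene (ENSMUSG00000063694, chr6:50562563-50566538, minus strand) had 6193, 7532 and 7484 normalized reads in LPS, against 1433, 1809 and 1826 in control. Every LPS library was above all control libraries, the log2 fold change was 2.07 ± 0.16 (adjusted p = 1.20e-06), and the gene was called higher under all 16 alternatives. Gm10053 on chromosome 19, which matches 946 bases of the Cycs transcript at 99.9% identity, had 515, 629 and 713 normalized reads in LPS, against 105, 138 and 168 in control, so the split of reads between these genes is uncertain.

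The promoter of Cycs was read for motifs of factors known for respiratory genes, because this gene changed most. Of the 91 nuclear members, 76 had a promoter in the RefSeq table (GRCm38.p6, 250 bases before to 50 after the start). The motifs, searched on both strands, were GCATGCGC for NRF1, CCGGAAG for the ETS family that includes NRF2/GABP and TGACGTCA for CREB (the cyclic AMP response element, CRE). The Cycs window (chr6:50566520-50566819, minus strand, GRCm38.p6) holds the CRE at −169 and the NRF1 motif at −60 from the start, both in capitals. The window of Ndufaf7 (chr17:78936885-78937184, plus strand), the member that fell most, holds none of the 3 and is shown for contrast.

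Cycs: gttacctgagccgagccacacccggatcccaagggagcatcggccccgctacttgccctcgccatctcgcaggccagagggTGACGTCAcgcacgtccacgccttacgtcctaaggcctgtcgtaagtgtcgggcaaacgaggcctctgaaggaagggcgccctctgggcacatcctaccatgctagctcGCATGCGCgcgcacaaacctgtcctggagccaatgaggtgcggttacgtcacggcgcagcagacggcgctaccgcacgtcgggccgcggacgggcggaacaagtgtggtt
Ndufaf7: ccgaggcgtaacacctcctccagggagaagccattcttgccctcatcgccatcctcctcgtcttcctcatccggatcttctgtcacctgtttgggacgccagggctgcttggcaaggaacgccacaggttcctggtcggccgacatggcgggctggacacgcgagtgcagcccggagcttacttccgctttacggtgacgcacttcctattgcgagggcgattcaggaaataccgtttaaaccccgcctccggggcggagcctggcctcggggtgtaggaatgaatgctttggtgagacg

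The NRF1 motif was in 13 of 76 member promoters (17.1%), against 3.05% of 27025 promoters in the table and 6.56% of the 7197 promoters of protein-coding genes averaging 100 normalized reads or more. The ETS motif was in 18 (23.7%), against 9.93% and 22.1%, and the CRE in 5 (6.58%), against 2.03% and 3.75%. By response to LPS, the NRF1 motif was in 2 of 10 promoters of members that rose, 1 of 7 that fell and 10 of 59 that did neither. A match of letters describes the sequence only.

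Complex IV had the most risers among the nuclear subunits. Of its 17 genes 5 rose and 1 fell, with a median of 0.52 (0.41 with TMM, 0.06 with quantile normalization and −0.19 with CPM scaling), while with CPM scaling none rose and 4 fell. Cox7a2, the isoform of subunit 7a common to most tissues, had 1099, 1635 and 1496 normalized reads in LPS, against 687, 776 and 1017 in control. No LPS library overlapped the control libraries, and the log2 fold change was 0.77 ± 0.20 (adjusted p = 0.00776). Cox5a, which binds the matrix side of the complex, had 1219.9, 1409 and 1305 normalized reads in LPS, against 651, 779.9 and 874 in control (0.78 ± 0.16, adjusted p = 0.00181), again without overlap. Cox5b, Cox6b1 and Cox7c rose by 0.59 to 0.63, and the groups of Cox6b1 overlapped. These 3 kept their calls in 10, 7 and 9 of 16 alternatives: all turned negative with CPM scaling, and all lost the call with quantile normalization and without LPS 2, LPS 3, control 1 or control 2. The calls of Cox5a and Cox7a2 were lost under CPM scaling, and that of Cox7a2 also under quantile normalization. Cox6a2, the heart and muscle isoform of subunit 6a, was the gene that fell, with 35.7, 69.5 and 47.2 normalized reads in LPS, against 93.6, 136 and 147 in control and a log2 fold change of −1.31 ± 0.29 (adjusted p = 0.00365), while its widely expressed counterpart Cox6a1 stood at 0.53 ± 0.22 (adjusted p = 0.0796).

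For complex V, 3 of 15 nuclear genes rose and none fell, with a median of 0.29 that became −0.29 with quantile normalization and −0.42 with CPM scaling. Atp5b, the catalytic beta subunit, had 14945, 19594 and 17771 normalized reads in LPS, against 9229, 10454 and 12189 in control. These groups did not overlap, and the log2 fold change was 0.72 ± 0.17 (adjusted p = 0.00476), which became −0.32 (adjusted p = 0.018) with quantile normalization. Atp5g3 (0.55 ± 0.16) is 1 of 3 genes that encode the same proton-carrying c subunit, and its rise turned to −0.15 with CPM scaling and was lost with quantile normalization and without LPS 3 or control 2. Atp5g1 stood at 0.43 ± 0.23 (adjusted p = 0.152) and Atp5g2 at −0.34 ± 0.23 (adjusted p = 0.257), and the difference between these genes was not tested. Atp5l, the g subunit, rose by 0.49 ± 0.18 (adjusted p = 0.0458), a call lost under CPM, TMM and quantile scaling, and without LPS 2 (0.38, adjusted p = 0.15), LPS 3 (adjusted p = 0.15), control 1 (adjusted p = 0.14) or control 2 (adjusted p = 0.13). Its LPS and control libraries overlapped.

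In complex III 2 of 8 nuclear genes rose and none fell (median 0.20, but −0.18 with quantile normalization and −0.50 with CPM scaling). Both are small subunits: Uqcrb rose by 0.51 ± 0.15 (adjusted p = 0.0159) and Uqcrq by 0.62 ± 0.21 (adjusted p = 0.0324). Near-identical copies cover 62.8% of the Uqcrb transcript, so the split of its reads is uncertain. Each call was lost under CPM and quantile scaling and without LPS 2, LPS 3 or control 2, and that of Uqcrq, whose groups overlapped, also under TMM scaling and without control 1.

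Complex I had a median of 0.03 over its 36 nuclear subunits (−0.07, −0.25 and −0.67 with TMM, quantile and CPM scaling), with 1 gene higher and 2 lower, against 30 lower with CPM scaling and 7 with quantile normalization. Ndufs4, an accessory subunit of the NADH-binding module whose loss causes encephalopathy in mice, rose with 793, 1002 and 986 normalized reads in LPS, against 431, 482 and 584 in control and a log2 fold change of 0.90 ± 0.17 (adjusted p = 0.00123). Ndufs1, the largest core subunit of the same module, fell with 423, 289 and 286 normalized reads in LPS, against 573, 562 and 558 in control and a log2 fold change of −0.78 ± 0.18 (adjusted p = 0.00468). In both genes the groups did not overlap. The other gene that fell, Ndufb10 of the membrane arm (−0.46 ± 0.16, adjusted p = 0.0364), lost its call without any LPS library and without control 2 or 3. In complex II (median −0.28, and −0.38, −0.82 and −0.98 with TMM, quantile and CPM scaling) 1 of 4 genes fell, and 2, 3 and 4 fell under those scalings. Sdha, the flavoprotein subunit that oxidizes succinate, had 2999.8, 2392 and 2529.5 normalized reads in LPS, against 5156, 4748 and 4549.5 in control. All LPS libraries lay below all control libraries (−0.87 ± 0.15, adjusted p = 5.89e-04), and the call stood in all 16 alternatives. The other complex II genes did not pass the test: Sdhb, the iron-sulfur subunit, stood at −0.14 ± 0.18 (adjusted p = 0.574), and the membrane anchors Sdhc and Sdhd at 0.15 ± 0.19 (adjusted p = 0.543) and −0.42 ± 0.18 (adjusted p = 0.0811).

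Of the 9 assembly factors of complex I, 4 fell and none rose. Their median was −0.31 (−0.41 with TMM, −1.0 with CPM scaling and 0.00 with quantile normalization). Ndufaf2 and Ndufaf4 kept their calls in 13 and 10 of 16 alternatives. Both lost them with quantile normalization and without control 2 or 3. Ndufaf4 also lost its call without LPS 2 or 3 and with all 9 libraries in 1 fit. A long noncoding RNA on the other strand overlaps 65.6% of the exon bases of Ndufaf2. Ndufaf7, a methyltransferase that in human cells modifies a core subunit of complex I, had 33.4, 24.5 and 27.5 normalized reads in LPS, against 118, 118 and 105 in control. Its LPS libraries were all below its control libraries (−1.96 ± 0.24, adjusted p = 5.84e-05). Atp5sl, needed in human cells to build the distal membrane arm, had 138, 132 and 111 normalized reads in LPS, against 287, 324 and 337 in control (−1.30 ± 0.18, adjusted p = 1.24e-04). Atp5s, the ATP synthase coupling factor B, fell alike with 16.1, 19.1 and 21 normalized reads in LPS, against 60.8, 73.5 and 86.5 in control (−1.91 ± 0.28, adjusted p = 2.14e-04). These 3 calls stood in all 16 alternatives, as did those of Ndufs1 and Sdha, whereas of the 12 rises only that of Cycs did.

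**Figure D3:**
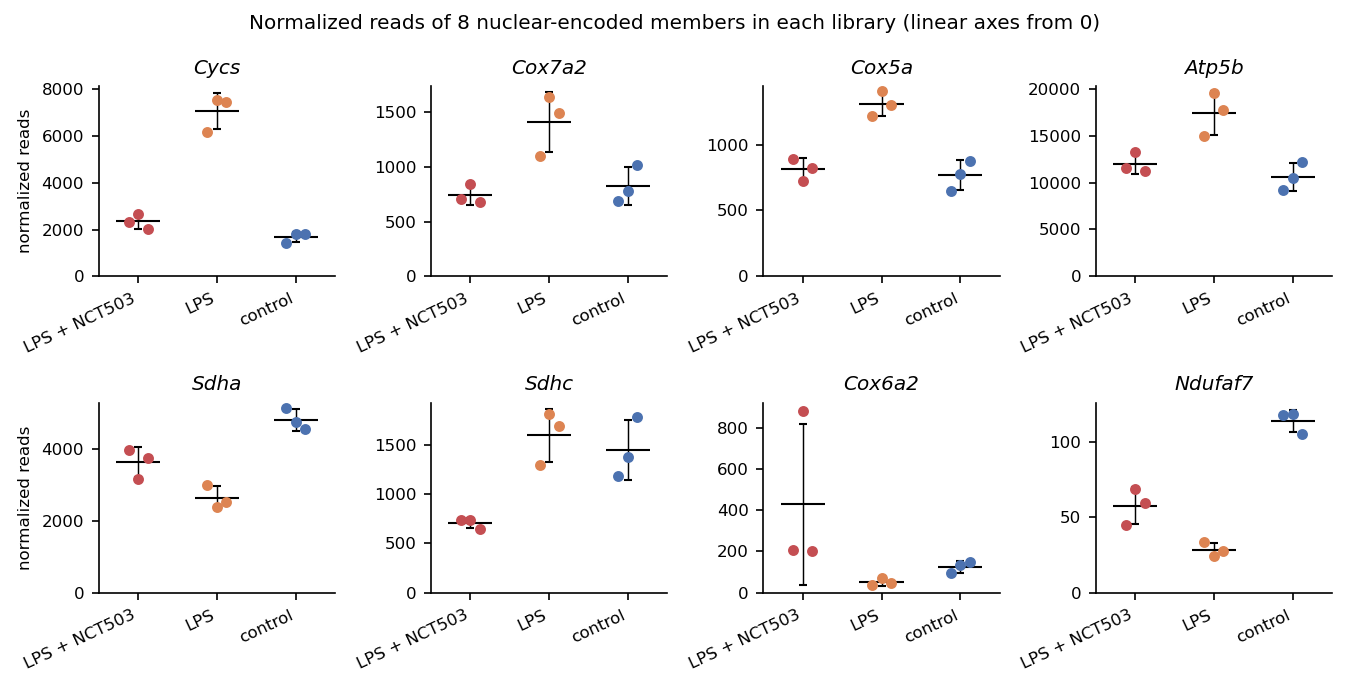
Normalized reads of 8 nuclear members in each library, with the axis of each panel linear and starting at 0. Points are libraries, wide bars are means and error bars are SD (n = 3). Cycs, Cox7a2, Cox5a and Atp5b are highest in LPS, Sdha and Ndufaf7 are lowest in LPS, Sdhc is lowest in LPS with NCT503, and Cox6a2 has 1 library at 880 normalized reads.

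The next comparison asked what NCT503 changed in LPS-treated cells. It uses the same LPS libraries as the comparison with control, so a gene high in these libraries stands higher in the one and lower in the other. Of the 104 members 35 fell and 2 rose in LPS with NCT503 against LPS, while 15.7% of all genes tested fell, 16.9% rose and 32.6% did either. The 10 mitochondrial genes among the 35 are most of the 13, and the other 25 are nuclear. Median log2 fold changes were −0.67 for the mitochondrial and −0.41 for the nuclear members, against 0.08 for all genes. The sign of both medians was the same under TMM, quantile and CPM scaling (−0.65, −0.50 and −0.42 for mitochondrial, −0.39, −0.31 and −0.16 for nuclear members). CPM scaling moved the median of all genes by 0.22 and left 5 members higher and 11 lower, among them 1 and 3 mitochondrial genes. The 33.7% of members that fell as fitted thus became 10.6% with CPM scaling, where 10.8% of all genes fell. The number that fell also depended on single libraries: it was 16, 48 and 11 without LPS with NCT503 1, 2 and 3, and 51, 10 and 9 without LPS 1, 2 and 3. The first 3 counts were 15.4%, 46.2% and 10.6% of members, against 12.4%, 17.9% and 10.7% of all genes that fell. The other 3 were 49.0%, 9.62% and 8.65%, against 15.3%, 11.7% and 10.7%. Without LPS with NCT503 3, LPS 2 or LPS 3 the share of members was thus no higher than that of all genes. All 7 neutrophil and all 6 mast cell markers measured, and 5 of 9 macrophage markers, fell in the same comparison. Members that fell in all 16 alternatives were Atp5g1, Atp5g3, Cox7a2, Cycs, Ndufa4, Sdhc, mt-Cytb and mt-Nd4l.

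Among the mitochondrial genes, mt-Cytb had the smallest adjusted p. It encodes cytochrome b, the only mitochondrially made subunit of complex III (ENSMUSG00000064370, chrM:14145-15288, plus strand), and had 4993, 4341 and 4771 normalized reads in LPS with NCT503, against 9127, 13000.3 and 10668 in LPS. The highest LPS with NCT503 library was below the lowest LPS library, and the log2 fold change was −1.20 ± 0.18 (adjusted p = 4.11e-04). mt-Cytb has no near-identical copy in the annotation used.

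The complex I genes of the mitochondrial genome moved the same way. mt-Nd4 had 3713, 3571 and 3546 normalized reads in LPS with NCT503, against 4845, 6873 and 5653 in LPS (−0.67 ± 0.18, adjusted p = 0.0135). mt-Nd5 had 7315, 5483 and 6416 normalized reads in LPS with NCT503, against 8763, 10923 and 9148 in LPS (−0.59 ± 0.18, adjusted p = 0.0258). mt-Nd6, which lies on the strand opposite to the others, had 1488, 1107 and 1307 normalized reads in LPS with NCT503, against 1889, 2182 and 1964 in LPS (−0.63 ± 0.18, adjusted p = 0.0166). In all 3 the groups did not overlap. Since the strand setting of the counting is unknown, reads of mt-Nd6 cannot be told apart from reads of the opposite strand there. mt-Nd2 fell with a log2 fold change of −0.55 ± 0.19 (adjusted p = 0.044), while mt-Nd1 also separated the groups but stood at −0.53 ± 0.20 (adjusted p = 0.0655). The short mt-Nd3 (−1.30 ± 0.39, adjusted p = 0.026) and mt-Nd4l (−1.43 ± 0.31, adjusted p = 0.0043) showed larger folds on few reads, 10 to 36 and 14 to 40 per library. Without LPS 2 or LPS 3 the calls of 8 of these 10 mitochondrial falls were lost, and 2 were left, those of mt-Cytb and mt-Nd4l.

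Complex IV subunits of the mitochondrial genome diverged. mt-Co2, which takes electrons from cytochrome c, fell with 416, 267 and 379 normalized reads in LPS with NCT503, against 529.9, 669.6 and 639.9 in LPS (−0.81 ± 0.21, adjusted p = 0.0134). mt-Co3 had 226, 133 and 215 normalized reads in LPS with NCT503, against 291, 338 and 368 in LPS (−0.82 ± 0.24, adjusted p = 0.0219). mt-Co1 did not fall with them: it had 110886, 81234 and 108915 normalized reads in LPS with NCT503, against 83116, 98006 and 82237 in LPS, groups that overlap, and a log2 fold change of 0.19 ± 0.18 (adjusted p = 0.466). The ATP synthase gene mt-Atp6 stood at −0.24 ± 0.21 (adjusted p = 0.418), and mt-Atp8 at −1.27 ± 0.42 (adjusted p = 0.0391) on 5 to 18 reads per library, a call lost without any 1 of the 6 libraries. Annotated copies of these genes gave values of their own: Gm28437, the copy of mt-Co3, stood at −0.86 ± 0.24 (adjusted p = 0.0179), and Gm29216, a copy of mt-Co1, at −0.11 ± 0.21 (adjusted p = 0.708).

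**Figure D4:**
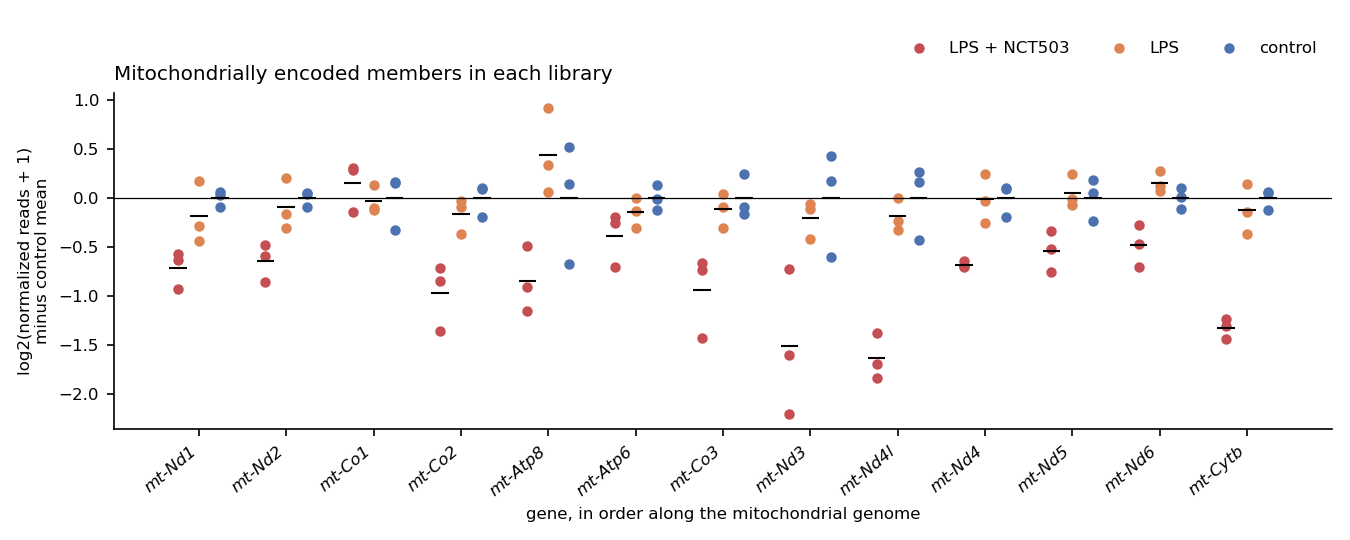
Mitochondrially encoded members in each library, as log2(normalized reads + 1) minus the mean of the control libraries, in gene order along the mitochondrial genome. Points are libraries and bars are group means. The mean of LPS with NCT503 lies below that of LPS in every gene but mt-Co1, with a log2 difference of −1.20 for mt-Cytb.

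The ribosomal RNAs of the same genome, which are not members, give a further set of values. mt-Rnr1 had 4567, 4387 and 4965 normalized reads in LPS with NCT503, against 4212, 6272 and 5997 in LPS and 3147, 3579 and 3152 in control. mt-Rnr2 had 2888, 3263 and 3330.3 normalized reads in LPS with NCT503, against 3431, 4296 and 4106 in LPS and 2007, 2588 and 2069.6 in control. Both rose in LPS against control (0.72 ± 0.17, adjusted p = 0.00583 and 0.84 ± 0.16, adjusted p = 0.00133). CPM scaling moved the median of all genes by −0.63 in that comparison, which is most of the size of both rises. As shares of the library totals, LPS and control overlapped in both genes, so these rises depend on the scaling. Neither gene passed the test in LPS with NCT503 against LPS (−0.22 ± 0.19, adjusted p = 0.402 and −0.31 ± 0.17, adjusted p = 0.177).

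Of the nuclear members, Cycs again had the largest fall with NCT503. It had 2338, 2664 and 2042 normalized reads in LPS with NCT503, against 6193, 7532 and 7484 in LPS, with no overlap and a log2 fold change of −1.59 ± 0.17 (adjusted p = 4.59e-05). Its near-identical gene Gm10053 stood at −1.54 ± 0.19 (adjusted p = 1.10e-04).

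In nuclear complex IV 7 of 17 genes fell and 1 rose (median −0.62), and 3 fell with CPM scaling (median −0.38). Ndufa4, the subunit of complex IV once counted with complex I, had 596, 648 and 545 normalized reads in LPS with NCT503, against 969, 1449.6 and 1326 in LPS. The groups did not overlap (−1.04 ± 0.20, adjusted p = 0.00181). Cox7a2 had 702, 841 and 676 normalized reads in LPS with NCT503, against 1099, 1635 and 1496 in LPS (−0.91 ± 0.20, adjusted p = 0.0043) and Cox5a had 893, 723 and 823 normalized reads in LPS with NCT503, against 1219.9, 1409 and 1305 in LPS (−0.69 ± 0.17, adjusted p = 0.00903), both without overlap. Cox6c, Cox5b, Cox6a1 and Cox6b1 fell by 0.62 to 0.72. Cox5b, Cox6a1 and Cox6b1 each kept the call in 10 of 16 alternatives. They lost it with CPM scaling, with quantile normalization and without LPS with NCT503 1 or 3, LPS 2 or LPS 3. Cox6c kept its call in 13 and lost it without LPS with NCT503 3, LPS 2 or LPS 3. The gene that rose was Cox6a2, with 205, 880.2 and 202 normalized reads in LPS with NCT503, against 35.7, 69.5 and 47.2 in LPS and a log2 fold change of 2.73 ± 0.49 (adjusted p = 0.00145). LPS with NCT503 2 lay far above the other libraries, and without it the log2 fold change was 2.03 (adjusted p = 3.6e-04). Exons of Cox6a2 overlap 70 bases of Itgad on the other strand, and the strand setting of the counting is not given in the sources used here.

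In complex V 8 of 15 nuclear genes fell and none rose (median −0.53), against 4 lower with quantile normalization (median −0.31) and 2 lower and 1 higher with CPM scaling (median −0.28). Of the 3 genes for the c subunit, Atp5g1 had 313, 454 and 341 normalized reads in LPS with NCT503, against 536, 908 and 733 in LPS (−0.96 ± 0.23, adjusted p = 0.00867) and Atp5g3 had 1188, 1281 and 1139 normalized reads in LPS with NCT503, against 1859, 2288 and 2307 in LPS (−0.83 ± 0.17, adjusted p = 0.00291). Atp5g2 went the other way without passing the test, at 0.38 ± 0.24 (adjusted p = 0.248). Atp5a1, the alpha subunit, fell with a log2 fold change of −0.63 ± 0.17 (adjusted p = 0.0137) and Atp5b with one of −0.53 ± 0.17 (adjusted p = 0.0345). Both calls were lost with CPM scaling, with quantile normalization and without LPS with NCT503 1, LPS with NCT503 3 or LPS 3, and that of Atp5b also without LPS 2.

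Complex II was split. Sdhc, a membrane anchor that helps to bind ubiquinone and heme, had 736, 736 and 648 normalized reads in LPS with NCT503, against 1294, 1808 and 1690.3 in LPS. Its groups did not overlap (−1.16 ± 0.18, adjusted p = 5.96e-04). Sdha had 3976, 3179 and 3758 normalized reads in LPS with NCT503, against 2999.8, 2392 and 2529.5 in LPS, higher in each LPS with NCT503 library than in any LPS library but at 0.46 ± 0.17 (adjusted p = 0.0585) short of the threshold. Sdhb and Sdhd stood at −0.36 ± 0.19 (adjusted p = 0.17) and −0.53 ± 0.19 (adjusted p = 0.0527).

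In complex I 6 of the 36 nuclear subunits fell and none rose, a share near the 15.7% of all genes, with a median of −0.33, and with CPM scaling 1 fell (median −0.09). Ndufa11, an accessory subunit of the membrane arm, had 320.1, 425 and 355 normalized reads in LPS with NCT503, against 482, 912 and 702 in LPS (−0.89 ± 0.24, adjusted p = 0.0155), and Ndufs4 fell, at −0.54 ± 0.17 (adjusted p = 0.0329). All 6 calls were lost without LPS with NCT503 1 or 3 and without LPS 2 or 3. The 7 nuclear core subunits had a median of −0.24 (0.00 with CPM scaling) with none called, and the 29 accessory subunits a median of −0.39. The difference between them was not tested. In complex III 1 of 8 fell, Uqcrb at −0.65 ± 0.17 (adjusted p = 0.0142) (median −0.30). The 9 assembly factors of complex I had a median of 0.21 (0.03 with quantile normalization and 0.45 with CPM scaling), with 1 rise and 1 fall. Ndufaf7 rose with 44.8, 68.7 and 59.5 normalized reads in LPS with NCT503, against 33.4, 24.5 and 27.5 in LPS (0.98 ± 0.30, adjusted p = 0.0253), a call lost without LPS with NCT503 2 (0.85, adjusted p = 0.055) or 3 (0.94, adjusted p = 0.095) and without LPS 2 (0.89, adjusted p = 0.081) or 3 (0.96, adjusted p = 0.073). Ndufaf8 fell, at −0.84 ± 0.24 (adjusted p = 0.0198), a call lost without LPS with NCT503 1 or 3 and without LPS 2 or 3.

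LPS with NCT503 was also set against control, a comparison that shares libraries with both others and so gives no independent evidence on them. Of the 104 members 25 fell and 3 rose, against 19.7% and 20.7% of all genes tested (40.4% in either direction). Medians were −0.71 for the mitochondrial and −0.26 for the nuclear members, against 0.05 for all genes. CPM scaling moved the median of all genes by −0.41 and quantile normalization by −0.13, and the medians of the members stayed negative under each scaling. With these, 87 members (83.7%, against 33.0% of all genes) and 54 (51.9%, against 23.9%) were lower. Without control 1, 36 members fell (34.6%, against 18.5% of all genes). Without control 2 or without control 3, 13 members fell (12.5%, against 13.6% and 14.6%). Without LPS with NCT503 1, 2 and 3 the counts were 16, 42 and 14. These were 15.4%, 40.4% and 13.5% of members, against 16.1%, 22.5% and 15.1% of all genes.

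The mitochondrial genes that fell were again 10, all 7 of complex I, mt-Cytb, mt-Co2 and mt-Co3. mt-Cytb had 4993, 4341 and 4771 normalized reads in LPS with NCT503, against 10808, 12223 and 12298 in control (−1.32 ± 0.14, adjusted p = 3.71e-05). mt-Nd1 had 7862, 6139.9 and 7542 normalized reads in LPS with NCT503, against 10953, 11968 and 12205 in control (−0.71 ± 0.15, adjusted p = 0.00342), and mt-Co2 had 416, 267 and 379 normalized reads in LPS with NCT503, against 598, 727 and 731 in control (−0.97 ± 0.20, adjusted p = 0.00281). These 3 genes did not overlap between the groups, and they fell in all 16 alternatives. mt-Nd2 and mt-Nd4 fell, at −0.64 ± 0.15 (adjusted p = 0.00642) and −0.68 ± 0.14 (adjusted p = 0.00356), also in every alternative. mt-Co1 (0.15 ± 0.19, adjusted p = 0.554), mt-Atp6 (−0.38 ± 0.19, adjusted p = 0.133) and mt-Atp8 (−0.85 ± 0.45, adjusted p = 0.161) did not pass the test.

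Complex II was the nuclear complex in which each gene fell. Sdhc had 736, 736 and 648 normalized reads in LPS with NCT503, against 1182, 1378 and 1778 in control (−1.01 ± 0.18, adjusted p = 0.00111), and Sdhd had 884, 1231 and 942 normalized reads in LPS with NCT503, against 1565, 2088 and 2280.4 in control (−0.95 ± 0.19, adjusted p = 0.00262). Sdhb had 1706, 1977 and 1664 normalized reads in LPS with NCT503, against 2173, 2566 and 2906 in control (−0.51 ± 0.16, adjusted p = 0.0265), and Sdha had 3976, 3179 and 3758 normalized reads in LPS with NCT503, against 5156, 4748 and 4549.5 in control (−0.41 ± 0.15, adjusted p = 0.0472). None of the 4 overlapped between the groups. Sdhc and Sdhd were called in all 16 alternatives, whereas the call of Sdha was lost when any 1 of the 6 libraries was left out (adjusted p = 0.15 without control 2, the highest of these). It was also lost with no filter on low values (adjusted p = 0.051) and with the replicate number as a block. Sdhb lost its call without LPS with NCT503 1 or 3 and without control 2 or 3.

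Of the other nuclear members, Ndufa4 fell, at −0.74 ± 0.18 (adjusted p = 0.0072), Ndufaf7 at −0.98 ± 0.23 (adjusted p = 0.00699), Atp5sl at −0.90 ± 0.18 (adjusted p = 0.0029) and Atp5s at −1.53 ± 0.29 (adjusted p = 0.00177), each in all 16 alternatives. Atp5a1 fell, at −0.56 ± 0.15 (adjusted p = 0.0139). Uqcrq rose, with 3158, 4113 and 3167 normalized reads in LPS with NCT503, against 1624, 2062 and 2487 in control and a log2 fold change of 0.77 ± 0.19 (adjusted p = 0.00824), a call lost under CPM scaling and quantile normalization. Cycs, with 2338, 2664 and 2042 normalized reads in LPS with NCT503, against 1433, 1809 and 1826 in control, rose by 0.48 ± 0.16 (adjusted p = 0.0411). That call was lost under TMM (0.40, adjusted p = 0.081), quantile (0.12, adjusted p = 0.56) and CPM scaling (0.02, adjusted p = 0.91), and without 5 of the 6 libraries in turn. Cox4i2, the lung and hypoxia isoform of subunit 4, had 12.2, 5.2 and 11.9 normalized reads in LPS with NCT503, against 6.15, 0.7 and 0.8 in control (1.87 ± 0.64, adjusted p = 0.0396) in libraries that overlap, and lost its call without control 2 or 3, without LPS with NCT503 1 or 3, under CPM scaling, with a pseudocount of 0.1, with all 9 libraries in 1 fit, and in edgeR and DESeq2, while without control 1 the value was 2.54 (adjusted p = 0.0069).

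**Figure D5:**
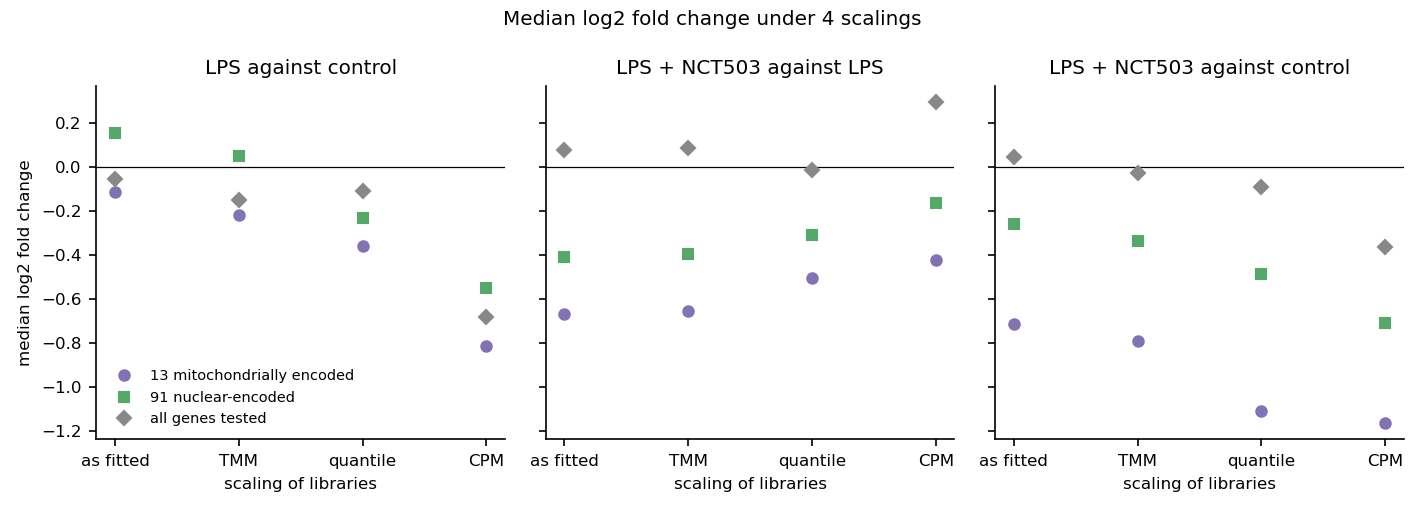
Median log2 fold change of the 13 mitochondrially encoded members, the 91 nuclear-encoded members and all genes tested under 4 scalings of the libraries, in the 3 comparisons. For LPS against control the nuclear median is 0.15 as fitted and −0.55 with CPM scaling, a change of sign, while for LPS with NCT503 against LPS both member medians lie below that of all genes and below 0 under each scaling.

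The isoforms of complex IV give a check on the tissue. Levels per kb in LPS with NCT503, LPS and control were 4287 ± 556, 5749 ± 1238 and 4274 ± 909 for the common isoform Cox4i1, and 12.4 ± 5.03, 13 ± 12.1 and 3.24 ± 3.96 for Cox4i2 (normalized reads per kb, mean ± SD, n = 3 each). Cox6a1 had 8891 ± 2186, 14732 ± 3833 and 10191 ± 2356, and the muscle isoform Cox6a2 had 631 ± 574, 74.7 ± 25.3 and 185 ± 41.7. For subunit 7a, Cox7a2 had 784 ± 93.6, 1494 ± 295 and 876 ± 181, and the muscle isoform Cox7a1 had 24.8 ± 9.2, 43.9 ± 15.3 and 42.3 ± 14.4. Cox6b2, known from testis, was at 6.29 to 8.14 per kb, and Ndufa4l2, a hypoxia-induced paralogue of Ndufa4, at 5.99 to 15.9. For subunits 4, 6a and 7a the widely expressed isoform was thus the higher one in all 3 groups. Cox7a2l, annotated as a 7a2-like gene of subunit 7a, had 2493, 3527 and 2825 normalized reads in LPS with NCT503, against 2519, 2531 and 2383 in LPS and 1439, 3146 and 3534 in control, with control 1 apart from the other control libraries. Cox8a stood at 0.45 ± 0.21 (adjusted p = 0.101) in LPS against control and −0.54 ± 0.21 (adjusted p = 0.0637) in LPS with NCT503 against LPS.

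A paralogue of Ndufa4 had the largest response to LPS among the related genes listed. AA467197 (Nmes1), whose product in human cells takes the place of NDUFA4 in complex IV during inflammation, had 788, 473 and 698 normalized reads in LPS with NCT503, against 1435, 1718 and 2662 in LPS and 47.1, 42.7 and 45.7 in control. Every LPS library exceeded all control libraries (5.35 ± 0.22, adjusted p = 1.03e-08), and every LPS with NCT503 library lay between these groups (−1.55 ± 0.26, adjusted p = 8.84e-04 against LPS). Ndufa4 itself had 596, 648 and 545 normalized reads in LPS with NCT503, against 969, 1449.6 and 1326 in LPS and 827, 974 and 1228 in control.

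AA467197 is 1 of 44 assembly factors and other electron carriers outside the name rule that were tested. Of these 5 rose and 14 fell in LPS against control, and 2 rose and 7 fell in LPS with NCT503 against LPS (medians −0.12 and −0.23). Over all genes tested 20.5% rose and 21.4% fell in the first, and 16.9% rose and 15.7% fell in the second. The 7 falls are thus near the share of all genes. Under CPM scaling these shares of all genes were 10.5% and 42.8%, then 22.3% and 10.8%. With CPM scaling 5 rose and 33 fell in the first (median −0.82), and 6 rose and 5 fell in the second (median 0.01). Sco1, which delivers copper to mt-Co2, had 306, 176 and 213 normalized reads in LPS with NCT503, against 677, 644 and 1035 in LPS and 197, 179 and 183 in control (2.04 ± 0.20, adjusted p = 7.87e-06 for LPS against control and −1.76 ± 0.25, adjusted p = 3.22e-04 for LPS with NCT503 against LPS). Cox18, which inserts mt-Co2 into the membrane, and Coa5, another complex IV assembly factor, had like patterns: Cox18 stood at 1.71 ± 0.19 (adjusted p = 2.24e-05) and −1.16 ± 0.19 (adjusted p = 8.29e-04), and Coa5 at 1.32 ± 0.14 (adjusted p = 2.17e-05) and −1.31 ± 0.17 (adjusted p = 1.85e-04). Tmem126b, an assembly factor of complex I, fell with 93.3, 81.8 and 72.1 normalized reads in LPS, against 342, 351 and 376 in control (−2.10 ± 0.18, adjusted p = 3.50e-06). Higd1a, a hypoxia-induced protein that binds complex IV, rose by 1.47 ± 0.17 (adjusted p = 2.77e-05) in LPS against control. Cyc1, the cytochrome c1 of complex III, did not pass the test in either comparison (0.32 ± 0.20, adjusted p = 0.225 and −0.51 ± 0.22, adjusted p = 0.0926).

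Enzymes that feed electrons to ubiquinone or build it were 20, with 5 higher and 6 lower in LPS against control and 4 higher and 2 lower in LPS with NCT503 against LPS (medians −0.15 and −0.20). Of all genes, 20.5% rose and 21.4% fell in the first, and 16.9% rose and 15.7% fell in the second. With CPM scaling 15 fell in the first (median −0.85), where 42.8% of all genes fell, and the median of the second became 0.04. Gpd2, the mitochondrial glycerol-3-phosphate dehydrogenase, had 3835, 2125 and 3178 normalized reads in LPS with NCT503, against 4145, 2952 and 3096 in LPS and 463, 389.9 and 338 in control, a rise of 3.09 ± 0.18 (adjusted p = 1.13e-07) with LPS that stood at −0.18 ± 0.23 (adjusted p = 0.577) against LPS when NCT503 was present. Coq8a, an atypical kinase of ubiquinone synthesis, had 11495, 9589 and 10388 normalized reads in LPS with NCT503, against 984, 1443 and 924 in LPS and 150.3, 214 and 207 in control. It rose in both comparisons (2.54 ± 0.21, adjusted p = 2.21e-06 and 3.26 ± 0.20, adjusted p = 8.67e-07), with no overlap between any pair of groups. Etfdh, which passes electrons from fatty acid and amino acid oxidation to ubiquinone, fell with LPS and was higher with NCT503, at 275, 306 and 271 normalized reads in LPS with NCT503, against 138, 106 and 91.8 in LPS and 394, 344 and 314 in control (−1.65 ± 0.20, adjusted p = 5.21e-05 and 1.35 ± 0.22, adjusted p = 6.96e-04).

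Of 27 genes for mitochondrial DNA maintenance, transcription and RNA stability, 2 rose and 8 fell in LPS against control, and 6 rose and 5 fell in LPS with NCT503 against LPS. The shares of all genes were 20.5% higher and 21.4% lower in the first, and 16.9% and 15.7% in the second. With CPM scaling they were 10.5% and 42.8%, then 22.3% and 10.8%. The median of −0.42 in the first was −1.06 with CPM scaling, with 19 lower, and that of 0.38 in the second was positive under each scaling, with 10 higher and 2 lower under CPM scaling. Lrpprc, which stabilizes mitochondrial messenger RNAs, had 392, 276 and 352 normalized reads in LPS with NCT503, against 217, 131 and 121 in LPS and 501, 433 and 373 in control (−1.51 ± 0.23, adjusted p = 2.97e-04 and 1.15 ± 0.26, adjusted p = 0.00513). Pnpt1, a mitochondrial exoribonuclease, had 443, 274 and 381 normalized reads in LPS with NCT503, against 841, 723 and 692 in LPS and 308, 256 and 223 in control (1.53 ± 0.17, adjusted p = 2.52e-05 and −1.06 ± 0.21, adjusted p = 0.00272). Tfam, which packages and transcribes mitochondrial DNA, stood at −0.05 ± 0.16 (adjusted p = 0.839) and −0.30 ± 0.19 (adjusted p = 0.253), and Polrmt, the mitochondrial RNA polymerase, fell against control in LPS with NCT503 (−1.16 ± 0.24, adjusted p = 0.0028).

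Among 10 tested regulators of nuclear respiratory genes, 6 rose and none fell in LPS against control, and 3 rose and 2 fell in LPS with NCT503 against LPS (medians 0.74 and −0.02). With CPM scaling 2 rose and 4 fell in the first (median 0.04), and the median of the second became 0.22. For these and the next lists, the shares of all genes were 20.5% higher and 21.4% lower in the first comparison. They were 16.9% and 15.7% in the second. Under CPM scaling they were 10.5% and 42.8%, then 22.3% and 10.8%. Esrra, a nuclear receptor that drives respiratory genes, had 1833, 2405 and 1745 normalized reads in LPS with NCT503, against 3334, 4952 and 3762 in LPS and 1524, 1930.1 and 2087 in control (1.12 ± 0.18, adjusted p = 4.87e-04 and −1.0 ± 0.20, adjusted p = 0.00287). Hcfc1, a coactivator, fell with NCT503 and had 1277, 1453 and 1233 normalized reads in LPS with NCT503, against 2971, 3467 and 2952 in LPS (−1.24 ± 0.16, adjusted p = 1.79e-04). Gabpb1, a subunit of NRF2, rose in both (1.0 ± 0.15, adjusted p = 2.88e-04 and 1.13 ± 0.20, adjusted p = 0.00112), as did Hif1a (1.77 ± 0.24, adjusted p = 1.00e-04 and 0.99 ± 0.27, adjusted p = 0.0167) and Myc (0.78 ± 0.23, adjusted p = 0.0165 and 1.36 ± 0.22, adjusted p = 6.51e-04). Ppargc1b, the PGC-1 coactivator detected here, stood at −0.12 ± 0.19 (adjusted p = 0.664) and −0.27 ± 0.22 (adjusted p = 0.384). Of the 77 mitochondrial ribosomal protein genes 10 rose and 14 fell in LPS against control (median 0.00), against 2 higher and 60 lower with CPM scaling (median −0.70). In LPS with NCT503 against LPS 3 rose and 16 fell (median −0.28), against 6 and 6 with CPM scaling (median −0.03). Of 9 carriers and uncoupling proteins tested in LPS against control 2 rose and 2 fell, against none higher and 7 lower with CPM scaling. Vdac2 and Vdac3, channels of the outer membrane, rose (0.64 ± 0.14, adjusted p = 0.00343 and 0.73 ± 0.15, adjusted p = 0.0019), and Ucp2, which exports metabolites from mitochondria, and its relative Ucp3 fell (−0.83 ± 0.18, adjusted p = 0.00311 and −2.52 ± 0.55, adjusted p = 0.00341). Vdac2, Vdac3 and Ucp3 were named after their values were seen. In LPS with NCT503 against LPS 8 were tested and none passed the limma test, had an unadjusted p under 0.05, or passed in edgeR or DESeq2, while 1 was higher with CPM scaling and 1 with quantile normalization.

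The authors' deposited table gives 13 members higher and 9 lower for LPS against control at its adjusted p under 0.05, and 3 higher and 41 lower for LPS with NCT503 against LPS, 10 of these mitochondrial. In the second comparison it calls mt-Nd1 lower (its adjusted p = 0.0424) and not mt-Atp8 (0.0943), the reverse of the limma calls. It also calls Sdha higher (0.0439) and Sdhd lower (0.0421), which limma did not. Its log2 fold changes are 2.07 for Cycs in the first and −1.59 for Cycs and −1.22 for mt-Cytb in the second comparison.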

How the data were processed

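The authors deposited 2 tables, LPS with NCT503 beside LPS and LPS beside control, of normalized signal per gene (read counts divided by size factors), with their own log2 fold changes and p-values, per the file headers. Reads were aligned with TopHat2 to mm10, per the submitters' processing notes, and no source used here names the counter, annotation, strand setting or test. All values came out as whole reads (100%, within 0.001), and the recovered reads gave the depth, shares and 1 joint scale for all 9 libraries. Log2(value + 1) of the deposited signal was tested with limma 3.58.1 (R 4.3.3) on each pair of groups over all genes whose mean reached 1 normalized read in either group, with Benjamini-Hochberg adjustment. Fold changes use the scaling of each table, and LPS with NCT503 against control, which no single table holds, uses the joint scale. Run on the recovered reads as alternatives, edgeR 4.0.16 called 7769, 6087 and 7546 genes and DESeq2 1.42.0 called 7813, 6225 and 7676 for LPS against control, LPS with NCT503 against LPS and LPS with NCT503 against control, against 8355, 6449 and 8061 with limma. All 104 members passed the filter, and 2 pseudogenes matched by name were left out. Copies were searched with BLAST 2.17.0. The fit was also run on simulated reads with changes of known size, as many higher as lower, and known size factors. That run cannot bear on how the results depend on the scaling or on single libraries. Named members are, per comparison, the 10 called with the smallest p whose groups do not overlap and the 3 called with the smallest p per complex, and further the mitochondrial genes, complex II, Cycs, Ndufa4 and the isoforms of complex IV. Of other genes, the 3 called with the smallest p per list and 4 fixed genes could be named, and not all are. The members and lists were chosen with earlier results of these data known. Exons of 42 members overlap another gene, and reads of such genes cannot be told apart without strand.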

Additional observations from a re-analysis of the deposited data

How the results depend on the processing

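Both the scaling of the libraries and the choice of libraries moved the members. For LPS against control CPM scaling gave 1 member higher and 73 lower, with medians of −0.55 (nuclear) and −0.81 (mitochondrial), and quantile normalization gave 4 higher and 29 lower, with medians of −0.23 and −0.36. For LPS with NCT503 against LPS CPM scaling gave 5 higher and 11 lower with a mitochondrial median of −0.42. As fitted, the mitochondrial genes without an annotated near-identical copy, mt-Atp8 among them, had a median of −0.92. That alternative was chosen after seeing the data. For LPS with NCT503 against control CPM scaling gave 0 higher and 87 lower, with medians of −0.71 and −1.16, and quantile normalization gave 54 lower and a mitochondrial median of −1.11. Of all genes called, 48.9%, 52.0% and 51.3% were higher in the 3 comparisons, and with CPM scaling 19.7%, 67.3% and 27.2%. Same-numbered libraries did not deviate together in every pair (correlations of −0.23 to 0.37). With the replicate number as a block 25 members rose for LPS against control (24.04%, against 23.96% of all genes). In that fit 12 members fell (11.5%, against 24.7% of all genes). For LPS with NCT503 against LPS the block gave 4 higher (3.85%, against 21.5%) and 59 lower (56.7%, against 19.9%). For LPS with NCT503 against control Sdha stood at an adjusted p of 0.082 with the block. The mitochondrial share differed by −0.338, 0.0709 and −0.267 percentage points of all reads in the 3 comparisons, and by −5.56, 6.65 and 1.09 points of the members' reads. The cause of these shifts was not tested.

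Leaving out 1 library at a time gave 5 to 22 members higher and 6 to 11 lower for LPS against control, 1 to 3 higher and 9 to 51 lower for LPS with NCT503 against LPS, and 1 to 3 higher and 13 to 42 lower for LPS with NCT503 against control. Nuclear medians were 0.03 to 0.30, −0.57 to −0.32 and −0.38 to −0.18, mitochondrial medians were −0.21 to 0.01, −0.79 to −0.57 and −0.78 to −0.63, and the share differences were −0.374 to −0.304, 0.0443 to 0.119 and −0.303 to −0.219 points. Single genes changed sign, from or to a called value, as follows for LPS against control. With CPM scaling Atp5g3 was −0.15, Atp5l −0.21, Cox5b −0.089, Cox6b1 −0.11, Cox7c −0.074, Ndufa4 −0.39, Sdhc −0.55, Uqcrb −0.19, Uqcrq −0.082, mt-Nd5 −0.64 and mt-Nd6 −0.54. With quantile normalization Atp5b was −0.32, Cox4i1 −0.50, Cox6a1 −0.39, mt-Nd5 −0.91 and mt-Nd6 −0.36. For LPS with NCT503 against control Cox4i1 was −0.43 with CPM scaling and −0.54 with quantile normalization. Of the values for single genes 1812 kept direction and call, 76 gained a call, 279 lost one and 18 changed sign. Depth limits mt-Nd3, mt-Nd4l and mt-Atp8, at 5 to 99 reads per library.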
